A study of Mus musculus with 57 samples.

Results

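The mesothelial genes Wt1, Upk3b, Upk1b, Msln, Krt19 and Lrrn4 were followed through every library of a mouse embryo RNA-seq series. They were chosen by name, as markers of the sheet of cells that covers the lung, the diaphragm and the other organs of the body cavities, and are 6 of the 56860 genes counted. The series compared Hoxa5-/- embryos, homozygous for the Hoxa5tm1Rob null allele in which a neomycin cassette interrupts the homeobox, with wild-type (wt) embryos, all on the 129/Sv background. Its 57 libraries of polyadenylated RNA form 14 groups, made of both genotypes in 7 contexts: trachea, diaphragm and lung at E15.5, the younger lung at E12.5, the region of the somites at 2 stages (E10.5, E12.5), and iBAT, the brown fat between the shoulder blades, at E18.5. Every group held 4 libraries, except for 3 Hoxa5-/- libraries of somites at E10.5 and 5 of each genotype of iBAT. One centre sequenced the 32 respiratory and diaphragm libraries and another the 25 from somites and iBAT, so tissue and centre cannot be told apart across these sets, and tests were kept within one of them.

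The reads counted in genes ranged from 18369905 to 72991481 per library. Hoxa5 itself was lower in every Hoxa5-/- library than in any wt library of its context, for example 20.9 to 37.7 against 76.3 to 108.9 in trachea, in TPM (the number of transcripts of a gene in every 1000000 of its library). Markers were set against the labels of diaphragm and iBAT. The summed level of 6 skeletal muscle genes was 10251 to 28105 TPM in the diaphragm libraries, and that of 6 brown fat genes was 8877 to 14181 TPM in iBAT. Markers of other tissues were also found in some libraries, as described with the genotypes. The labels do not state litters or dates, so the p-values below measure the spread between libraries. In iBAT the library names carry a leading number, of 4 in all, each found in both genotypes, and what it stands for is not stated.

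Mesothelium is a single layer of epithelial cells of mesodermal origin that keeps keratins and an apical surface while it also expresses mesenchymal genes. In the embryo it lines the pleural, pericardial and peritoneal cavities, sends signals to the growing lung, and gives rise to some of the underlying connective tissue. Wt1 encodes a zinc finger transcription factor of the mesothelium, the developing kidney and the gonad. Upk3b and Upk1b encode uroplakins, membrane proteins first known from the lining of the bladder. Msln encodes mesothelin, a cell surface glycoprotein with a lipid anchor. Krt19 encodes a keratin of simple epithelia, found in many epithelia besides mesothelium, and Lrrn4 a membrane protein with leucine-rich repeats. In whole tissue, a lower level of such a gene may come from fewer mesothelial cells or from less RNA in each, and these cannot be told apart here.

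In GRCm39 the members lie on 5 chromosomes. Wt1 spans chr2:104956874-105003961 on the plus strand, and Lrrn4 spans chr2:132710225-132722811 on the minus strand. Upk3b is at chr5:136067350-136075341 (plus), Upk1b at chr16:38593546-38620690 (minus), Msln at chr17:25967587-25973352 (minus) and Krt19 at chr11:100031636-100039491 (minus). No annotated gene span overlapped a member. The nearest neighbour of interest was Wt1os, a long non-coding RNA transcribed away from Wt1, whose start lies 18 bases from that of Wt1.

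Upk3b and Lrrn4 had the most similar library-to-library variation of all 15 pairs of members, described further on. They are also the 2 of the 6 members matched in the RefSeq promoter table used here, and the 250 bases before their start sites are shown as it gives them for GRCm38.p6. Capitals mark the 6-base letters GGAATG or, on the opposite strand, CATTCC, the core recognised by TEAD factors. The window of Upk3b is chr5:136038246-136038495 on the plus strand and that of Lrrn4 is chr2:132880863-132881112 on the minus strand.
Upk3b: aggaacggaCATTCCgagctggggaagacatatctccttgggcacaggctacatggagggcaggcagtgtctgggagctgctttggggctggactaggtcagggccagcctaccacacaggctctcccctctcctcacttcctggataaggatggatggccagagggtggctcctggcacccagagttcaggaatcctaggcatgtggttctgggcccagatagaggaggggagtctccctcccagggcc
Lrrn4: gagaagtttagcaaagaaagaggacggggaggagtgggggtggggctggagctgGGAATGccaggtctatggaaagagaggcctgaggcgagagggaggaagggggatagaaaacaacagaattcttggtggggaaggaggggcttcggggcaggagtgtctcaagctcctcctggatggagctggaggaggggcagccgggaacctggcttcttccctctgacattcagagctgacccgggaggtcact
Each window held these letters once, 241 bases before the start of Upk3b on the strand opposite to the gene and 196 bases before that of Lrrn4 on the strand of the gene. Of all 32841 promoter windows of this length, 12.6% held them on either strand. Neither window held the letters of a TATA box (TATAAA, present on either strand in 12.4% of all windows). A GC box (GGGCGG, in 32.7%) was not found in them, and nor was a site of EGR1 and WT1 type (GCGGGGGCG, in 2.57%). GC content was 60.8% for Upk3b and 59.2% for Lrrn4, against a median of 52.4%.

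The members did not share one pattern over tissues. In wt embryos Wt1, Upk3b and Lrrn4 had their highest mean level in the diaphragm, whereas Upk1b, Msln and Krt19 had theirs in the trachea, so lung and diaphragm surfaces were not the richest source of every member. Levels below are in TPM, which corrects for gene length and library depth, as mean ± SD of the wt libraries. TPM values of the 2 sets are set side by side as descriptions only, since tissue and centre cannot be told apart.

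Wt1 was at 44.4 ± 9.41 TPM (SD, n = 4) in wt diaphragm, with single libraries at 44.7, 57.3, 35.4 and 40.2 TPM. It followed at 20.1 ± 2.20 in lung at E12.5, 9.38 ± 7.99 in trachea and 8.89 ± 2.55 in somites at E10.5 (n = 4 each). Lung at E15.5 had 5.01 ± 0.587 and somites at E12.5 had 3.59 ± 0.860 TPM (n = 4 each). The diaphragm libraries stood above all others, while the ranges of lung at E12.5, trachea and somites at E10.5 overlapped with their neighbours in this order, as did those of lung at E15.5 and somites at E12.5. In iBAT no library held more than 2 Wt1 reads.

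Upk3b had the same leading tissue, with 117, 155, 88.8 and 86.9 TPM in the wt diaphragm libraries (112 ± 31.9, n = 4). Lung at E12.5 had 77.7 ± 4.26 and lung at E15.5 had 43.2 ± 0.798 TPM (n = 4 each), and neither overlapped with the other or with diaphragm. Trachea averaged 40.2 ± 37.5 TPM (n = 4), but its libraries lay at 31.1, 95.4, 14.3 and 19.9, and the library of replicate 2 alone was above every lung library. Somites had 4.44 ± 2.42 TPM at E12.5 and 3.67 ± 2.78 at E10.5 (n = 4 each), with overlapping ranges, and iBAT libraries held 1 to 11 reads.

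Lrrn4 was at 84.1, 93.3, 65.0 and 75.9 TPM in wt diaphragm (79.6 ± 12.1, n = 4). Lung at E12.5 was uniform at 25.1, 24.7, 24.6 and 24.9 TPM (24.8 ± 0.221, n = 4), and lung at E15.5 had 8.61 ± 1.04. In trachea the 4 wt libraries were at 13.6, 40.3, 6.75 and 5.82 TPM (16.6 ± 16.2), a spread that reached across both lung stages. Somites and iBAT, at 1.82 ± 1.26 (E10.5, n = 4), 1.75 ± 0.846 (E12.5, n = 4) and 1.28 ± 0.127 TPM (n = 5), overlapped. Lrrn4 was the only member with a mean above 1 TPM in iBAT.

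Upk1b differed less between organs. It was at 32.7, 46.8, 54.1 and 24.97 TPM in wt trachea (39.7 ± 13.2, n = 4) and at 36.3, 42.5, 25.2 and 26.7 TPM in wt diaphragm (32.7 ± 8.21, n = 4), and these overlapped with each other. Lung at E12.5, at 23.4 ± 2.51 TPM (n = 4), overlapped with diaphragm, whereas lung at E15.5 (12.9 ± 1.29), somites at E12.5 (7.06 ± 2.36) and somites at E10.5 (1.07 ± 0.176) each lay below the one before without overlap. In iBAT its libraries held 0 to 4 reads.

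Msln was highest in trachea, with 67.9, 87.6, 148 and 37.2 TPM in the wt libraries (85.2 ± 46.9, n = 4), all above the 24.6, 25.5, 11.4 and 18.6 TPM of wt diaphragm (19.99 ± 6.52, n = 4). In lung at E15.5 it was at 3.65, 6.26, 24.2 and 3.29 TPM, and only the library of replicate 3 reached the diaphragm values. In lung at E12.5 it was close to the limit of detection, with 4 to 9 reads in each wt library, or 0.172 to 0.294 TPM. Somites held 2 to 9 reads in each library of either genotype. Of 10 iBAT libraries, 9 held no Msln read; a count of 0 there leaves room for up to 3 reads, and this covers counting error only.

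Krt19 reached the highest level of any member, in the trachea. The wt tracheas had 851, 847, 1691 and 561 TPM (988 ± 488, n = 4), the lungs at E15.5 had 146, 178, 334 and 158 TPM (204 ± 88.0, n = 4), and these did not overlap. Wt diaphragm was at 74.0, 101, 49.5 and 32.8 TPM (64.4 ± 29.8) and lung at E12.5 at 52.1, 37.6, 52.1 and 73.2 TPM (53.7 ± 14.6, n = 4 each), with overlapping ranges. Somites had 11.01 ± 3.40 TPM at E12.5 and 7.14 ± 2.48 at E10.5 (n = 4 each), and iBAT libraries held 2 to 9 reads.

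**Figure D1:**
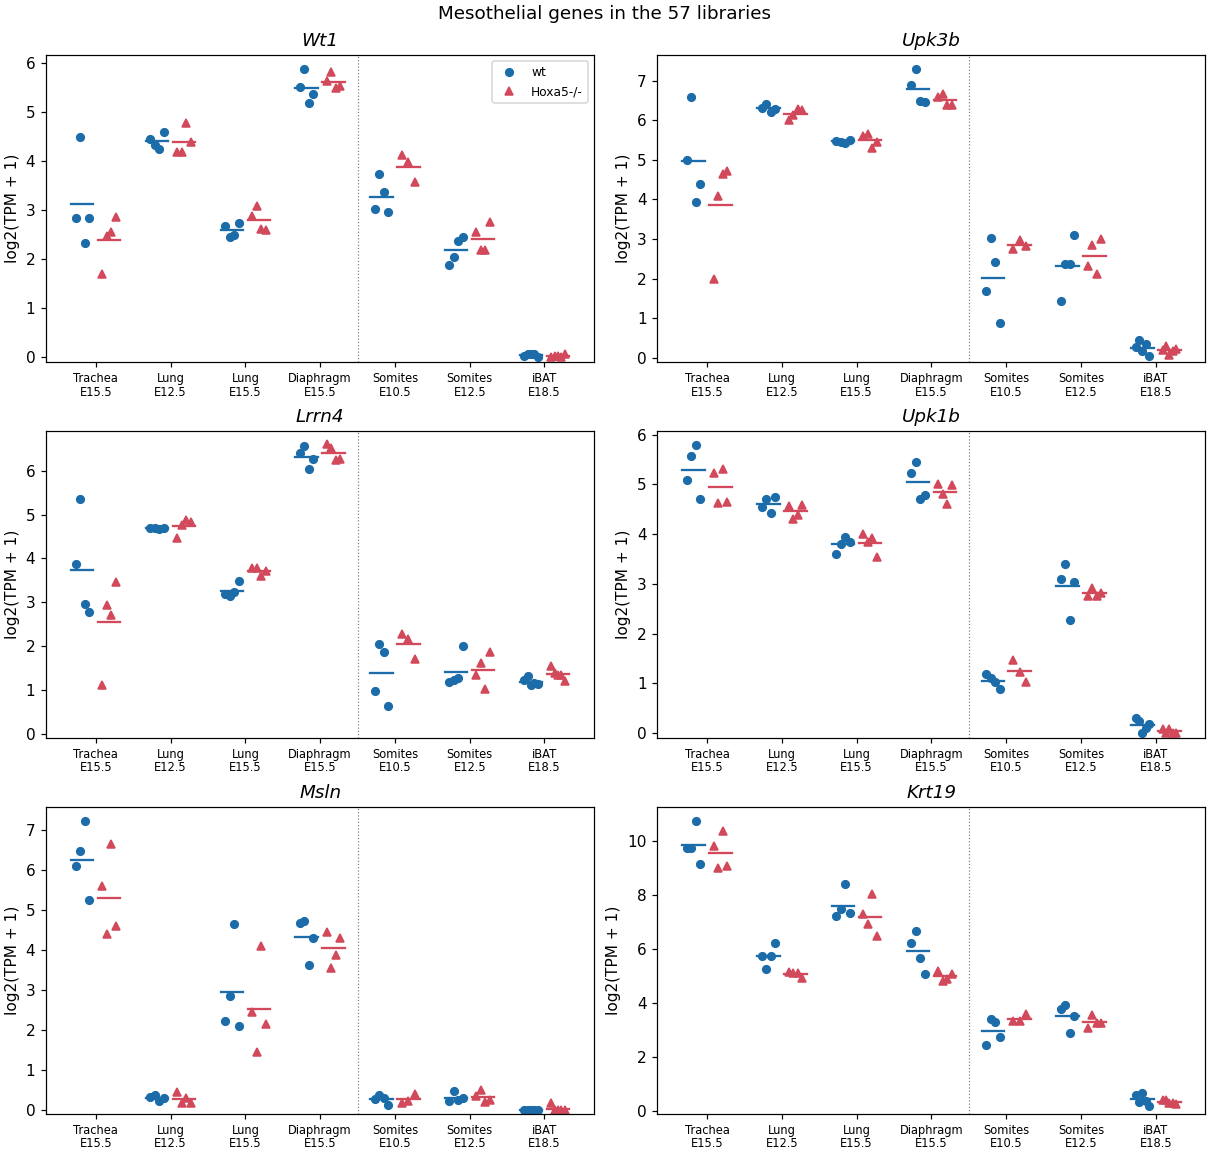
Levels of the 6 mesothelial genes as log2(TPM + 1), 1 panel for each gene, with the 7 contexts along the horizontal axis; circles are wt and triangles Hoxa5-/- libraries, short lines are group means, and the dotted line parts the sequencing centres. Wt1, Upk3b and Lrrn4 stand highest in the diaphragm, where wt means are 44.4, 112 and 79.6 TPM, and Krt19 in the trachea, where the wt mean is 988 TPM.

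Between E12.5 and E15.5 Wt1, Lrrn4, Upk3b and Upk1b fell in the wt lung and Msln and Krt19 rose, and all 6 members passed the test. With edgeR's quasi-likelihood test, a gene was called at a Benjamini-Hochberg adjusted p under 0.05 with at least a 1.5-fold change, which 24.6% of all genes tested met in this comparison, 15.4% as higher and 9.15% as lower at E15.5. Wt1 fell from 20.8, 18.9, 17.9 and 22.9 TPM to 5.39, 4.43, 4.59 and 5.62 TPM, a log2 fold change of -2.04 ± 0.11 (SE, adjusted p = 7.81e-07). Lrrn4 fell by 1.57 ± 0.09 on the log2 scale (adjusted p = 1.13e-06), from near 25 to 8.16, 7.79, 8.36 and 10.1 TPM. Every library of the later stage lay below every library of the earlier one for both genes. The share of all genes separated in this way is not given for contrasts of stage or tissue, so such separations are descriptions only.

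The uroplakin genes fell less. Upk3b went from 77.7, 83.3, 73.0 and 77.0 TPM to 43.6, 43.1, 42.1 and 44.0 TPM, with a log2 fold change of -0.89 ± 0.06 (adjusted p = 3.27e-06). Upk1b went from 22.3, 25.1, 20.3 and 25.7 TPM to 11.2, 12.9, 14.3 and 13.3 TPM, also by -0.89 ± 0.12 (adjusted p = 0.000141). The 4 genes that fell had log2 fold changes from -2.04 to -0.89, and the median over the 6 members was -0.89, against -0.01 over all genes tested.

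Msln rose by 5.22 ± 0.80 on the log2 scale (adjusted p = 0.000391) from the few reads of E12.5, and Krt19 rose by 1.90 ± 0.28 (adjusted p = 0.000292). Both depended in size on the lung library of wt replicate 3 at E15.5, which was the highest for both; without it the log2 fold changes were 4.14 for Msln and 1.55 for Krt19, and both were still called. That library also held the highest summed level of 7 lung epithelial markers, at 9191 TPM, against 3718 to 6450 TPM in the other 3. The same sum was 600.4 to 699 TPM in the wt lungs at E12.5. Between the stages Sftpc rose by 8.22 on the log2 scale, Cdh1 by 1.98, Nkx2-1 by 1.24, Epcam by 0.98 and Foxa2 by 0.73. Sox2 (0.34) and Sox9 (0.04) were not called, so the sum does not weigh the 7 markers alike. The part of these markers in the levels of Msln and Krt19 was not tested. In Hoxa5-/- lungs the same contrast also called all 6 members in the same directions. The share of all genes called between those lungs is not given here.

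Other genes of mesothelium and coelomic epithelium moved both ways in the same interval. Of a list of 12, all tested, 5 fell: the transcription factor genes Gata4 (log2 fold change -3.22), Tbx18 (-3.15) and Bnc1 (-2.69), the gene of the retinoic acid synthesising enzyme Aldh1a2 (-2.20), and Rspo1 (-1.76), which encodes a Wnt signalling enhancer. The 3 that rose were Pdpn (1.68), which is also a gene of alveolar type 1 cells, Gpm6a (1.20) and the mucin gene Muc16 (0.75), and the list's median was -0.24. The simple keratin partners Krt7 (1.04), Krt8 (1.44) and Krt18 (0.99) and the membrane linker gene Ezr (0.59) all rose, 4 of 4, as Krt19 did. Of the other uroplakin genes, 3 of 4 could be tested and all rose, Upk2 by 4.65, Upk3a by 4.04 and Upk1a by 0.94, opposite to Upk3b and Upk1b. Among 8 genes of retinoid and mesothelial signalling, Shh (1.03) and Bmp4 (0.62) rose and the retinoic acid binding protein gene Crabp2 (-4.02) fell.

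At E15.5 the wt diaphragm exceeded the wt lung in 4 members and was lower in Krt19, in a comparison that called 36.4% of all genes, 20.9% as higher and 15.6% as lower in diaphragm. Lrrn4 was higher by a log2 fold change of 3.52 ± 0.14 (adjusted p = 8.6e-08) and Wt1 by 3.46 ± 0.16 (adjusted p = 2.14e-07). Upk3b was higher by 1.68 ± 0.17 (adjusted p = 2.77e-05) and Upk1b by 1.65 ± 0.18 (adjusted p = 4.86e-05). For all 4 genes every diaphragm library lay above every lung library, again a description without the share of all genes. Krt19 was lower by 1.37 ± 0.37 (log2 fold change -1.37, adjusted p = 0.0104). Msln was at 1.41 ± 0.62 and did not pass (adjusted p = 0.0782), but it did without the high lung library of wt replicate 3 (log2 fold change 2.49, adjusted p = 0.000422), without diaphragm wt replicate 3 (1.63, adjusted p = 0.0455), and between the Hoxa5-/- tissues (1.52, adjusted p = 0.0498).

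Of the 12 further mesothelial and coelomic genes, 8 were higher in diaphragm than in lung and 2 lower, with a median log2 fold change of 0.72 against -0.01 over all genes. Gata4 (4.05), Tbx18 (3.19) and Bnc1 (2.82), which fell in the lung between the stages, were among the higher ones, with Gpm6a (1.69), Muc16 (1.39), Rspo1 (0.72), Pdpn (0.71) and Aldh1a2 (0.70). Calb2 (-3.35), which encodes calretinin, and Nkain4 (-1.35) were lower. All 4 simple keratin partners were lower in diaphragm, from -2.95 for Krt18 to -1.18 for Ezr, as Krt19 was. Among the uroplakin genes Upk3bl was called as higher (3.99), but its wt diaphragm libraries ranged from 0.675 to 21.5 TPM and overlapped with the 0.433 to 1.10 TPM of wt lungs, and it stood at 1.04 to 2.07 TPM in mutant diaphragms. The sum of the 4 uroplakin genes was 30.4 and 51.1 TPM in wt diaphragm replicates 1 and 2, which held the most squamous markers (described with the genotypes), and 3.26 and 4.01 TPM in the others. Among the signalling genes Crabp1 (2.41) and Crabp2 (2.30) were higher while Shh (-4.20), Fgfr2 (-2.76), Gli1 (-2.11) and Bmp4 were lower.

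Trachea and lung at E15.5 differed in the members that peaked in trachea. Krt19 was higher in trachea by a log2 fold change of 2.24 ± 0.38 (adjusted p = 0.00111), Msln by 3.17 ± 0.70 (adjusted p = 0.00471) and Upk1b by 1.59 ± 0.23 (adjusted p = 0.000476), and the comparison called 30.2% of all genes, 20.1% as higher and 10.1% as lower in trachea. Wt1 (0.87, adjusted p = 0.154), Lrrn4 (0.92, adjusted p = 0.2) and Upk3b (-0.14, adjusted p = 0.847) did not pass. Their values rested on trachea wt replicate 2: without it the log2 fold changes were 0.07 for Wt1, -0.02 for Lrrn4 and -1.03 for Upk3b, and Upk3b was then called as lower (adjusted p = 0.00765). Between Hoxa5-/- tissues they were -0.59, -1.25 and -1.57, of which Upk3b passed (adjusted p = 0.0291).

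Diaphragm exceeded trachea in Wt1 (2.53 ± 0.49, adjusted p = 0.0025), Lrrn4 (2.55 ± 0.57, adjusted p = 0.00533) and Upk3b (1.77 ± 0.55, adjusted p = 0.0255). It was lower in Krt19 (-3.66 ± 0.44, adjusted p = 0.000182) and Msln (-1.80 ± 0.42, adjusted p = 0.00639), among 32.5% of all genes called, 14.1% as higher and 18.4% as lower in diaphragm. Upk1b stood at 0.01 ± 0.26 (adjusted p = 0.981). The call of Upk3b was the least steady of these: it was lost without wt diaphragm replicate 1 (adjusted p = 0.0553) or replicate 2 (adjusted p = 0.0626) and without wt trachea replicate 1 (adjusted p = 0.0642) or replicate 4 (adjusted p = 0.0592), with log2 fold changes of 1.54 to 1.72. Without the outlying wt trachea replicate 2 the differences were larger, 2.67 for Upk3b (adjusted p = 0.000415), 3.34 for Wt1 and 3.49 for Lrrn4. The call of Msln was lost between Hoxa5-/- tissues (log2 fold change -1.26, adjusted p = 0.0622).

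The related genes also differed between trachea and the other organs. Of the 12 further mesothelial and coelomic genes, Tbx18 (3.93), Gata4 (3.10), Rspo1 (0.67) and Pdpn (0.61) were higher in trachea than in lung, and Fgf9 (-2.12), Calb2 (-1.74), the podocalyxin gene Podxl (-1.57) and Nkain4 (-1.17) were lower. Krt8 (0.76), Upk2 (2.54), Upk3bl (5.38), Crabp1 (3.85) and Crabp2 (1.56) were higher there too, and Shh (-1.47), Tgfb2 (-1.38) and Bmp4 (-0.95) lower. Against trachea, diaphragm was higher in Fgf9 (2.41), Bnc1 (2.13), Gpm6a (1.57), Aldh1a2 (1.17), Podxl (1.10) and Gata4 (0.91), and lower in Calb2 (-1.65). It was lower in all 4 simple keratin partners, from -3.31 for Krt8 to -1.35 for Ezr, as in Krt19. Of the signalling genes Tgfb2 (0.90) and Crabp2 (0.70) were higher, and Fgfr2 (-2.81), Shh (-2.77), Gli1 (-2.18) and Crabp1 (-1.49) lower.

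**Figure D2:**
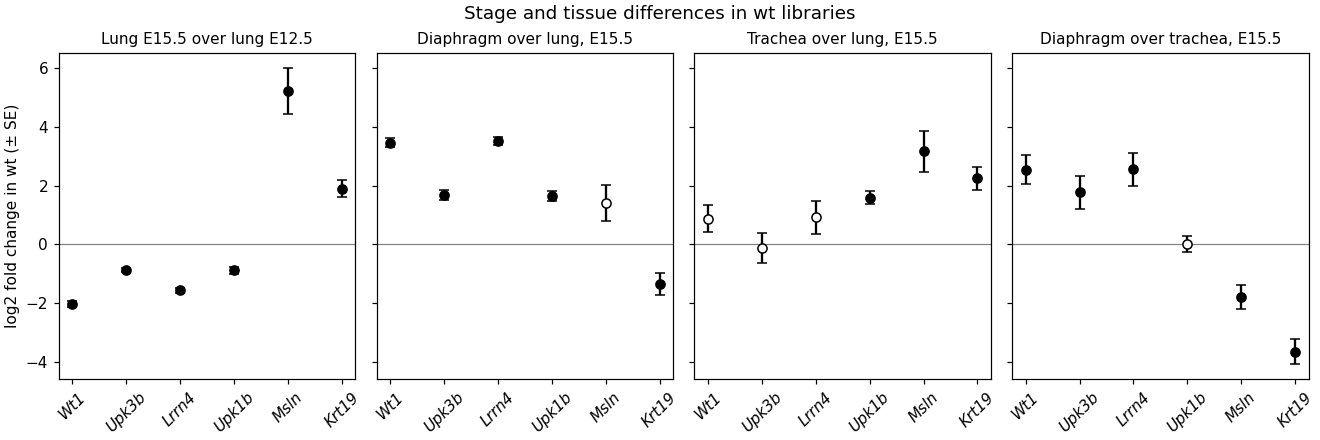
Log2 fold changes of the 6 genes in wt libraries for 4 contrasts, lung at E15.5 over lung at E12.5, diaphragm over lung, trachea over lung and diaphragm over trachea, with bars of 1 SE; filled points passed the test and open points did not. In the lung Wt1 falls by 2.04 and Msln rises by 5.22 on the log2 scale, and in diaphragm over lung Lrrn4 and Wt1 stand highest at 3.52 and 3.46.

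In the somite region, trunk segments freed of neural tube, limb and thoracic organs, Wt1 and Upk1b moved in opposite directions with age. Wt1 went from 7.12, 12.3, 9.29 and 6.79 TPM at E10.5 to 2.65, 3.09, 4.13 and 4.47 TPM at E12.5 in wt (log2 fold change -1.38 ± 0.21, adjusted p = 7.42e-05). Upk1b went from 1.26, 1.14, 1.04 and 0.848 to 7.60, 9.53, 3.86 and 7.26 TPM (2.63 ± 0.29, adjusted p = 2.71e-06). The genes of other tissues in these segments changed as well: the kidney genes Pax2 (-2.81, adjusted p = 5.59e-06) and Nphs1 (-2.77, adjusted p = 4.45e-05) were lower at E12.5, while Six2 was higher (3.72). All 6 squamous and foregut markers tested were higher at E12.5, among them Krt15 (5.97), Krt14 (5.01), Krt5 (4.18) and Trp63 (2.36), and their sum went from 15.99 to 34.01 TPM up to 495 to 513 TPM. The part of these tissues in the levels of Wt1 and Upk1b was not tested. The comparison called 42.6% of all genes, 24.1% as higher and 18.4% as lower at E12.5. Neither Wt1 nor Upk1b overlapped between the ages, a description given without the share of all genes separated in this way. Krt19 (0.56, adjusted p = 0.08), Upk3b (0.20, adjusted p = 0.749) and Lrrn4 (-0.13, adjusted p = 0.811) did not pass, and Msln was too low to test. Krt19 was called as higher at E12.5 without wt replicate 2 of E10.5 (0.77, adjusted p = 0.0256) or wt replicate 3 of E12.5 (0.74, adjusted p = 0.0149). Lrrn4 was called as lower at E12.5 between Hoxa5-/- somites (-0.82, adjusted p = 0.0272). Against wt somites at E12.5, Wt1, Upk3b, Upk1b and Krt19 were called as lower in iBAT, where they held few or no reads, in a comparison that called 66.3% of all genes, 31% as higher and 35.3% as lower. Lrrn4 was called as higher (log2 fold change 0.76 ± 0.28, adjusted p = 0.0202) although its mean TPM was lower in iBAT and the TPM ranges overlapped, so the direction of this difference depended on the scaling. That call was lost without iBAT wt replicate 2 (adjusted p = 0.0513) or without wt somite replicate 1, 2 or 3 at E12.5 (adjusted p = 0.067, 0.0603 and 0.0535), with log2 fold changes of 0.61 to 0.67.

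Of the 12 further mesothelial and coelomic genes, 11 could be tested between the somite stages. Calb2 (1.97), Tbx18 (1.67) and Fgf9 (1.37) rose, and Gpm6a (-1.42), Aldh1a2 (-1.38) and Pdpn (-0.90) fell. Ezr (-0.72) and Upk1a (-1.19) fell and Upk3bl (0.92) rose. Of the signalling genes Tgfb2 (1.64) and Bmp4 (0.73) rose, and Shh (-3.65), Crabp2 (-1.83) and Crabp1 (-0.98) fell. In iBAT against somites at E12.5, 9 of 10 tested genes of the 12 were lower and Podxl was higher (0.99), and all 4 keratin partners, both uroplakin genes tested and all 8 signalling genes were lower.

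The genotype comparison asked whether loss of Hoxa5 changes these genes. No member passed edgeR's test in any context. Of the 34 tests of a member in a context, 17 log2 fold changes (Hoxa5-/- over wt) were above 0 and 17 below. An unadjusted p under 0.05 was found in 5 of them. The share of all genes with such a p is not given here, so this count is a description only. The TPM ranges of the genotypes overlapped in 40 of the 42 combinations of a member and a context, and the other 2 are among the cases below. Over all genes tested in a context, the ranges did not overlap for 0.316% in iBAT (lowest) to 7.37% in the younger somites (highest). The share was 3.74% in trachea, 4.09% and 2.96% in the younger and older lung and 6.87% in diaphragm. Both separated cases are among the 34 combinations tested, and 2 of 34 is not set apart from this background. The share of all genes called was small too, 0.0156% in trachea, 0.0798% in lung at E12.5, 0.124% in lung at E15.5, 0.594% in diaphragm, 0.0215% in somites at E10.5, 0.00529% at E12.5 and 0.00657% in iBAT. DESeq2, the tool the study itself used, was run as an alternative with the same limits. It called Krt19 in lung at E12.5 and in diaphragm and Lrrn4 in lung at E15.5, and these 3 cases are described first.

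In lung at E12.5 Krt19 was at 34.4, 33.7, 33.9 and 29.3 TPM in Hoxa5-/- embryos and at 52.1, 37.6, 52.1 and 73.2 TPM in wt. All mutant libraries lay below all wt libraries, which held for 1.67% of all genes tested in this context. The log2 fold change was -0.69 ± 0.17, with an unadjusted p of 0.00184 and an adjusted p of 0.259 in edgeR's test. DESeq2 gave an adjusted p of 0.0102, and called 0.462% of all genes. The summed lung epithelial markers were at 594 to 730.2 TPM in mutant and 600.4 to 699 TPM in wt lungs. Among them Sox2 was at -0.31 and Sox9 at 0.28 (unadjusted p = 0.00542, adjusted p = 0.359). The 4 simple keratin partners summed to 364 to 400.1 TPM in mutant and 398 to 433 TPM in wt lungs, with Krt8 at -0.16 (unadjusted p = 0.0336, adjusted p = 0.591), and none of them was called. Their part in the level of Krt19 was not tested. Wt1 (0.01), Lrrn4 (0.06), Upk3b (-0.13) and Upk1b (-0.14) had small log2 fold changes there, and their ranges overlapped between genotypes.

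In lung at E15.5 Lrrn4 was at 12.8, 12.8, 11.1 and 12.1 TPM in Hoxa5-/- and at 8.16, 7.79, 8.36 and 10.1 TPM in wt embryos. The fourth mutant library had the fewest counted reads of these lungs, 20692978. In the paper's read statistics it also had their lowest shares of mapped and of assigned reads. All mutant libraries lay above all wt libraries, a separation in this direction found for 0.495% of all genes tested. The log2 fold change was 0.62 ± 0.15 (unadjusted p = 0.00265, adjusted p = 0.307 with edgeR). It was called by DESeq2 (adjusted p = 0.02), which called 0.467% of all genes, and with the replicate number as a block (adjusted p = 0.0252), which called 0.585%. Wt1 pointed the same way, with 6.38, 7.41, 5.08 and 5.02 TPM in mutant and 5.39, 4.43, 4.59 and 5.62 TPM in wt lungs (log2 fold change 0.36 ± 0.14, unadjusted p = 0.0324, adjusted p = 0.736), but the genotypes overlapped. Upk3b (0.16) and Upk1b (0.13) were close to 0.

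For Krt19 and Msln in lung at E15.5 the highest library of either genotype was that of replicate 3. Krt19 was at 156, 119, 258 and 86.9 TPM in mutant lungs (log2 fold change -0.33 ± 0.31, adjusted p = 0.924). Its lowest value was in the fourth mutant library, the one with the lowest shares of mapped and assigned reads. Msln was at 4.47, 1.75, 16.02 and 3.43 TPM (-0.46 ± 0.77, adjusted p = 0.962). The summed lung epithelial markers were also highest in these libraries, at 9174 TPM in the mutant and 9191 TPM in the wt one, against 1888 to 4519 and 3718 to 6450 TPM in the others. The markers did not vary alike: the genotype log2 fold change was -0.47 ± 0.53 (SE) for Sftpc and -0.06 ± 0.07 for Epcam. The part of these markers in the 2 genes was not tested.

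In diaphragm Krt19 was at 35.2, 27.3, 28.6 and 32.4 TPM in Hoxa5-/- and at 74.0, 101, 49.5 and 32.8 TPM in wt embryos. The first 3 wt libraries lay above every mutant library and the fourth within their range. The log2 fold change was -1.06 ± 0.30 (unadjusted p = 0.00664, adjusted p = 0.179 with edgeR), and DESeq2 gave an adjusted p of 0.0101 while calling 2.25% of all genes. The wt libraries with the most Krt19 also held RNA of other epithelia: 7 squamous and foregut markers summed to 379, 563, 23.1 and 24.7 TPM in the 4 wt libraries and to 18.49 to 29.3 TPM in the mutant ones. Of these markers Krt13 ranged from 0.069 to 99.8 TPM in wt and from 0 to 0.889 TPM in mutant diaphragms, and Krt5 from 0.229 to 75.6 and from 0.378 to 1.15 TPM. The epithelial splicing regulator gene Esrp1 was the 1 marker of this list that passed, at 0.189 to 7.44 TPM in wt and 0.0165 to 0.0963 TPM in mutant libraries (log2 fold change -5.98, adjusted p = 0.0459). Trp63, at 4.84 to 9.88 and 5.85 to 11.4 TPM, and Krt14, at 5.004 to 12.6 and 5.36 to 10.2 TPM, did not differ in this way (0.15 and -0.02). The lung epithelial markers summed to 38.1, 63.1, 518 and 12.99 TPM in wt and to 11.1 to 36.2 TPM in mutant libraries, with replicate 3 the high one. The lung mesenchyme gene Tcf21 was also called as lower in mutant diaphragms (-3.55, adjusted p = 0.0314), from 4.60 to 34.2 TPM in wt and from 1.28 to 2.07 TPM in mutant libraries. In the tests of a difference in genotype effect described further on, Esrp1 and Tcf21 passed for diaphragm against lung and against trachea, as did the foregut epithelial gene Sox2 (-4.41, adjusted p = 0.0158 and -4.33, adjusted p = 0.0216), and Foxf1 passed against lung (-2.07, adjusted p = 0.0475). The part of such tissue in the level of Krt19 was not tested.

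Without wt replicates 1 and 2 the log2 fold change of Krt19 was -0.40 (adjusted p = 0.79), and without wt replicate 3 as well, which left a single wt library assumed to vary like the mutant ones, it was -0.11 (adjusted p = 0.865). These fits were chosen after the data were seen, and the libraries left out for their markers are also the 3 highest in Krt19, so the choice itself fixes a smaller difference and the values are a description. Upk3b, which was at 94.4, 100.5, 82.5 and 82.5 TPM in mutant diaphragms, followed the same libraries: its log2 fold change of -0.32 ± 0.17 (adjusted p = 0.471) became 0.04 without wt replicates 1 and 2. Upk1b (-0.22) and Msln (-0.32) went to 0.12 and 0.11. Wt replicates 1 and 2 were also the highest wt diaphragm libraries for Upk3b, Upk1b and Msln. Leaving them out therefore had to raise these values too, and they are a description. Wt1 (0.11 ± 0.13, adjusted p = 0.78) and Lrrn4 (0.08 ± 0.12, unadjusted p = 0.554) lay near 0 with all libraries, with 48.2, 55.4, 44.0 and 44.7 TPM of Wt1 and 97.0, 90.7, 74.7 and 75.7 TPM of Lrrn4 in mutant diaphragms.

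**Figure D3:**
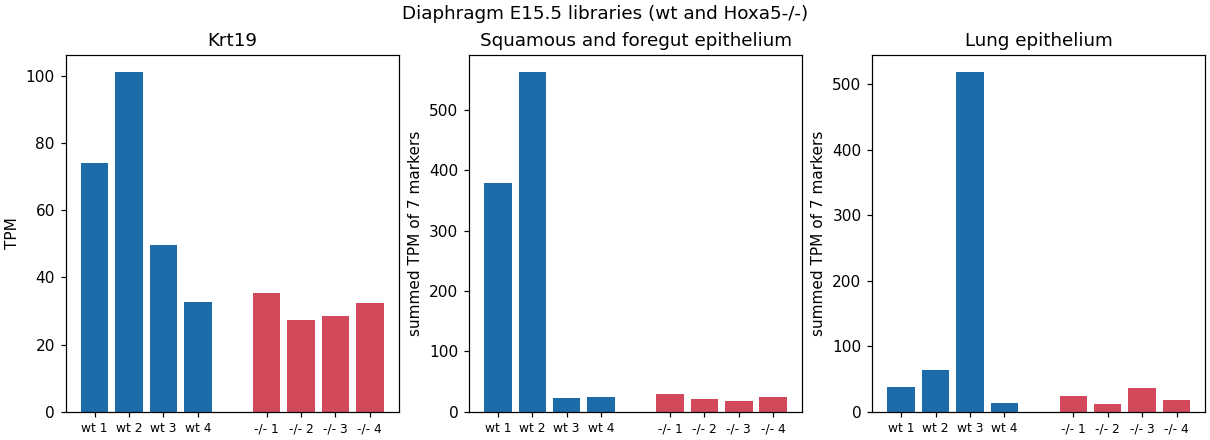
Bars, from 0, of Krt19 in TPM, of the summed TPM of 7 squamous and foregut epithelial markers and of the summed TPM of 7 lung epithelial markers in each of the 4 wt (blue) and 4 Hoxa5-/- (red) diaphragm libraries. The wt libraries of replicates 1 and 2 hold 379 and 563 TPM of squamous markers and 74.0 and 101 TPM of Krt19, and the other wt library above the mutant range, replicate 3, holds 518 TPM of lung epithelial markers.

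In trachea all 6 members had a log2 fold change below 0, with a median of -0.97 against 0.002 over all genes, and none passed. Lrrn4 was at 1.15, 6.72, 5.53 and 10.1 TPM in mutant tracheas (log2 fold change -1.51 ± 0.76, adjusted p = 0.762). Upk3b was at 2.95, 15.9, 24.1 and 25.2 TPM (-1.25 ± 0.74, adjusted p = 0.78) and Wt1 at 2.22, 4.54, 4.90 and 6.25 TPM (-1.08 ± 0.55, adjusted p = 0.762). These 3 genes were highest in wt replicate 2 and lowest in mutant replicate 1, and the remaining libraries of both genotypes overlapped. Without wt replicate 2 the values were -0.56, -0.34 and -0.27.

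The heart markers of the trachea libraries, 6 genes such as Myl7 and Myh6, also differed between genotypes. Their sum was 4243, 6038, 3369 and 5491 TPM in wt and 2532, 3276, 2919 and 1648 TPM in mutant tracheas, without overlap. Their median log2 fold change was -0.93 and none of the 6 passed the test. Library by library the sums followed Wt1, Upk3b and Lrrn4 only in part. The highest sum was in wt replicate 2, where these genes were highest too. The lowest wt sum was in replicate 3, as were the lowest wt levels of Wt1 and Upk3b. Wt replicate 4 had the second highest sum with the lowest wt level of Lrrn4. Mutant replicate 4 had the lowest sum with the highest mutant level of all 3 genes. Over the 32 libraries of the 4 respiratory and diaphragm contexts, the deviations of the heart markers from their group means had a Pearson's r of 0.0003 with Wt1, 0.06 with Upk3b and 0.04 with Lrrn4. These r values pool all 4 contexts, in which different genes make up the sum. In wt diaphragm Myl4 had a mean of 594 TPM and Myl7 of 32.3 TPM, against 389 and 3317 TPM in wt trachea. The pooled r values therefore do not measure heart tissue in the trachea, and an r for trachea alone is not given. The part of heart tissue in the levels of the 3 genes was not tested. The members that peak in trachea followed other libraries: Krt19 was at 890.0, 511, 1305 and 538 TPM (-0.29 ± 0.40, adjusted p = 0.867), Msln at 47.4, 20.3, 98.8 and 23.2 TPM (-0.86 ± 0.57, adjusted p = 0.789) and Upk1b at 36.3, 23.6, 38.8 and 24.1 TPM (-0.38 ± 0.28, adjusted p = 0.793) in mutant tracheas. Replicate 3 was the highest for these 3 genes in both genotypes, as it was for the squamous and foregut markers, which summed to 1157 TPM in the wt and 899 TPM in the mutant library.

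In somites at E10.5 the 5 members tested all had a log2 fold change above 0, from 0.30 for Upk1b to 0.74 for Lrrn4, with a median of 0.59 against -0.01 over all genes. Wt1 was at 16.3, 14.7 and 10.8 TPM in mutant and at 7.12, 12.3, 9.29 and 6.79 TPM in wt somites, where the second wt library fell inside the mutant range (0.59 ± 0.20, unadjusted p = 0.0152, adjusted p = 0.391). Upk3b was at 5.70, 6.81 and 6.11 TPM in mutant somites (0.70 ± 0.49, adjusted p = 0.485), with 1 wt library above and 3 below that range. Some epithelial genes lay higher in the same mutant libraries, and none was called. Trp63 was at 0.77 (unadjusted p = 0.00576), Cdh1 at 0.68 (unadjusted p = 0.0188) and Krt5 at 0.67 (unadjusted p = 0.048). Esrp1 was at 0.60 (unadjusted p = 0.0304), and all of these had an adjusted p of 0.391. The other squamous, foregut and lung epithelial markers tested were Krt15 (0.28), Epcam (0.25), Foxa2 (0.21), Sox9 (0.18), Sox2 (0.11) and Krt14 (-0.01). The 4 simple keratin partners were all above 0 with a median of 0.34. The squamous and foregut markers summed to 41.4, 36.6 and 23.8 TPM in mutant and 15.99, 17.5, 34.01 and 22.5 TPM in wt libraries. Their part in the members' values was not tested. At E12.5 the 5 log2 fold changes lay between -0.31 for Krt19 and 0.30 for Wt1, and the genotypes overlapped for every member. In iBAT only Lrrn4 could be tested, with 1.29, 1.54 and 1.93 TPM as the lowest, median and highest of 5 mutant libraries and 1.17, 1.23 and 1.48 TPM in wt (0.34 ± 0.17, unadjusted p = 0.0579, adjusted p = 1.0).

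**Figure D4:**
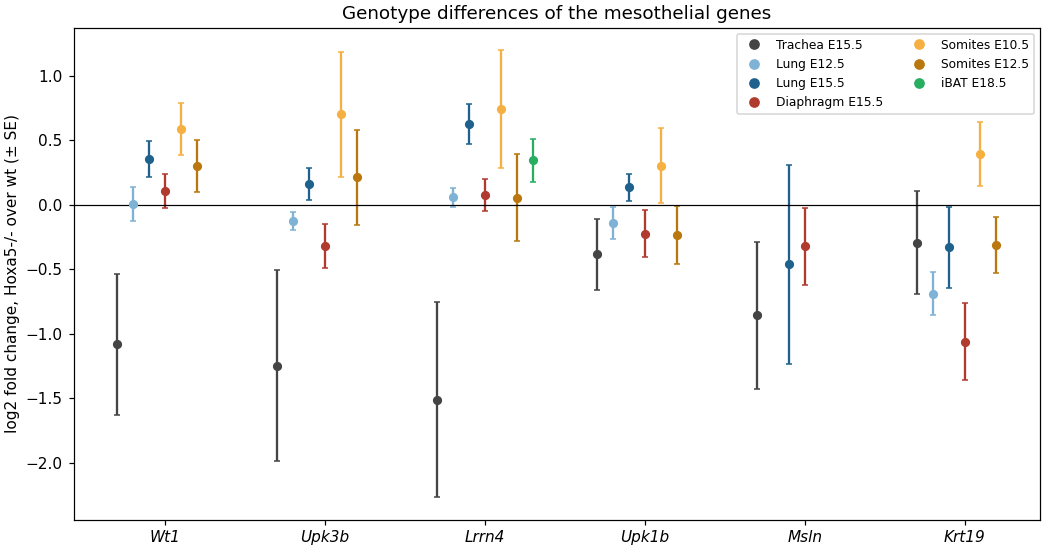
Log2 fold changes of Hoxa5-/- over wt for each gene, coloured by context and with bars of 1 SE, for the 34 combinations tested. None passed edgeR's test, and the values below -1 are those of Lrrn4 (-1.51), Upk3b (-1.25) and Wt1 (-1.08) in trachea and of Krt19 in diaphragm (-1.06).

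The gene groups around the members gave the same count. Of the 12 further mesothelial and coelomic genes, the 4 simple keratin partners, the 4 other uroplakin genes and the 8 signalling genes, none was called between genotypes in any context. The medians of the 12 were -0.44 in trachea, 0.11 in the younger lung and 0.10 in the older, -0.07 in diaphragm, and 0.27 in the younger somites and 0.02 in the older. Single uroplakin genes lay further from 0 in diaphragm. There Upk3a was at -7.91 (adjusted p = 0.133 with edgeR), Upk2 at -3.76 (0.217) and Upk3bl at -2.66 (0.299), while Upk1a was at 0.27 (0.601).

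Whether the genotype effect differed between contexts was tested by an interaction term. No member passed in any of 5 such tests, which called 0.0267% of all genes for lung at E15.5 minus lung at E12.5, 0.73% for diaphragm minus lung, 0.00502% for trachea minus lung, 0.439% for diaphragm minus trachea and 0.0147% for the somite stages. The genotype effect on Lrrn4 was lower by 0.55 ± 0.20 in diaphragm than in lung at E15.5 (difference of log2 fold changes -0.55, unadjusted p = 0.0159, adjusted p = 0.393), and this was called with the replicate number as a block (-0.54, adjusted p = 0.0223), where 2.25% of all genes were. The difference between the older and the younger lung was 0.57 ± 0.17 (unadjusted p = 0.00343, adjusted p = 0.793). The effect on Krt19 differed between diaphragm and lung by -0.73 ± 0.48 (adjusted p = 0.791).

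The members fell into sets by how they varied between libraries of the same group. Over the 32 libraries of trachea, lung and diaphragm, each value was taken as its deviation from the mean of its group on the log2(TPM + 1) scale. Pearson's r was 0.94 for Upk3b and Lrrn4, 0.88 for Wt1 and Upk3b and 0.87 for Wt1 and Lrrn4. It was 0.82 for Msln and Krt19, 0.76 for Upk1b and Krt19 and 0.66 for Upk1b and Msln. Between Wt1, Upk3b or Lrrn4 on one side and Msln or Krt19 on the other it was -0.14 to -0.05. These are descriptions without a test, of points that share libraries, and the grouping was chosen after the values were seen.

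The set of Wt1, Upk3b and Lrrn4 did not rest on the outlying trachea library alone, since its r values without trachea wt replicate 2 were 0.82 (Wt1 and Upk3b), 0.76 (Wt1 and Lrrn4) and 0.91 (Upk3b and Lrrn4) over 31 libraries. Msln and Krt19 were at 0.83 without it. Over the 24 lung and diaphragm libraries alone, r was 0.72 to 0.77 within the first set and 0.735 for Msln and Krt19. The pairs between Wt1, Upk3b or Lrrn4 and Msln or Krt19 then ran from -0.21 to 0.29, with 3 of 6 below 0. Upk1b was there nearer to Upk3b than to Msln (values in the last section), so its place depended on the trachea libraries. Within single contexts of 8 libraries the 3 genes of the first set were related in each, with r of at least 0.58, but Msln and Krt19 were not in lung at E12.5 (-0.05), where Msln had few reads. In diaphragm the sets did not separate: all 15 pairs were above 0, with a median r of 0.78, and the pairs between the sets ranged from 0.44 to 0.85.

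Some marker lists varied more with one set than with the other. The deviations of the squamous and foregut markers had an r of 0.79 with Upk1b, 0.78 with Krt19 and 0.60 with Msln, and of 0.09, 0.12 and 0.02 with Wt1, Upk3b and Lrrn4. The 12 further mesothelial and coelomic genes, as a sum, had r of 0.81 with Wt1, 0.70 with Lrrn4 and 0.66 with Upk3b, and of 0.13, -0.04 and -0.22 with Upk1b, Krt19 and Msln. The other uroplakin genes, as a sum, were at 0.67 with Upk1b, 0.66 with Msln and 0.80 with Krt19. With Wt1, Upk3b and Lrrn4 they were at 0.04, 0.06 and -0.02. The simple keratin partners were at 0.34, 0.47 and 0.65 with Upk1b, Msln and Krt19. With Wt1, Upk3b and Lrrn4 they were at -0.32, -0.21 and -0.26. Somite markers were at 0.16 (Msln) to 0.50 (Wt1) with the 6 members, and skeletal muscle markers at 0.07 (Wt1) to 0.44 (Msln). Lung epithelial markers were at -0.24 (Wt1) to 0.35 (Krt19) and brown fat markers at -0.17 (Upk3b) to 0.48 (Msln). What part of the Krt19, Msln and Upk1b reads came from cells other than mesothelium was not tested.

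**Figure D5:**
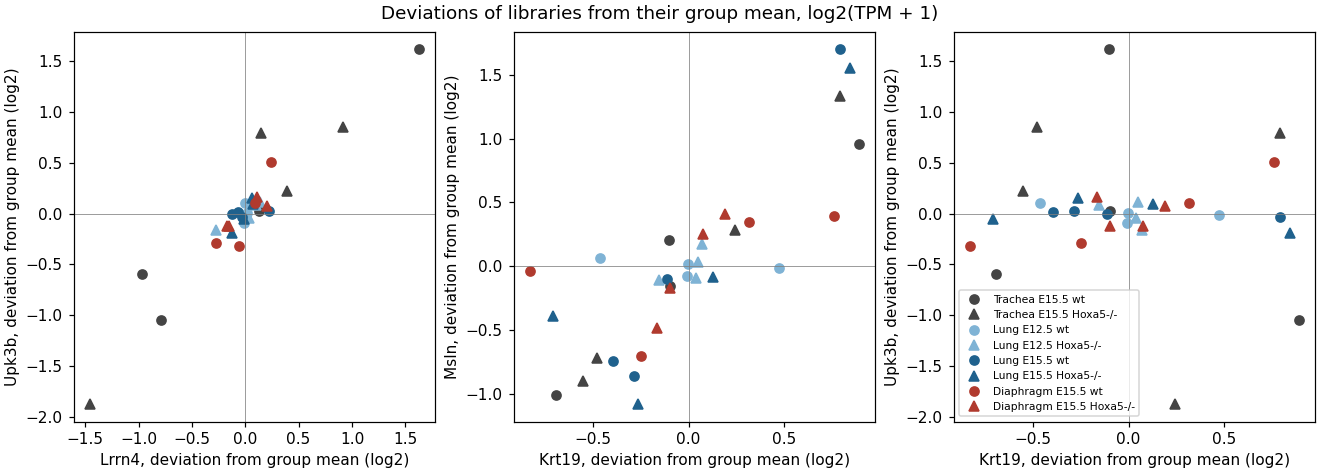
Deviations from group means on the log2(TPM + 1) scale for Upk3b against Lrrn4, Msln against Krt19 and Upk3b against Krt19, 1 point for each of the 32 libraries of trachea, lung and diaphragm, coloured by context, with circles for wt and triangles for Hoxa5-/-. The first pair rises together (r = 0.94) and so does the second (r = 0.82), whereas the third shows no slope (r = -0.07).

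The genes most like each member by the same deviations were found among all genes with a mean of at least 1 TPM in a group. For Wt1 they were its divergent neighbour Wt1os (r = 0.96), Myrf (0.91) and Tm4sf5 (0.89). For Upk3b they were Lrrn4 (0.94), Wt1 (0.88) and Bnc1 (0.87), and for Lrrn4 they were Upk3b (0.94), Bnc1 (0.93) and Wt1 (0.87). Upk3b and Lrrn4 were each other's nearest gene, and Wt1 was among the 3 nearest of both, whereas neither was among the 3 nearest of Wt1. For Upk1b they were Slc5a9 (0.88), Col17a1 (0.87) and Duoxa1 (0.86), for Msln Lrrc26 (0.94), Dpt (0.94) and Mal (0.92), and for Krt19 Ppl (0.93), Crybg2 (0.93) and Cds1 (0.90). By levels over the same 32 libraries, tissue differences included, Wt1 was most like Wt1os (0.99), Lrrn4 (0.97) and Tm4sf5 (0.96), Krt19 was most like Cds1, Dgka and Ehf (0.98 each), and Msln was most like Qpct, Niban1 and Dpt (0.97 each). Wt1os itself was at 6.70 to 10.6 TPM in wt diaphragm, 3.94 to 4.68 in lung at E12.5, 0.912 to 1.23 in lung at E15.5 and 0.681 to 3.32 in trachea, the same order of means as Wt1.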

How the data were processed

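Bulk RNA-seq of 57 mouse embryo libraries was used. Per the study's methods and the submitters' processing notes, Trim Galore 0.6.5 was used for trimming, STAR 2.7.9a for alignment to mouse GRCm39 and featureCounts 2.0.3 for counting per gene on a GENCODE annotation curated for Hox genes. Reads were single-end for trachea, lung and diaphragm and paired-end for somites and iBAT, and the strand setting is not given in the sources used here. The deposited counts are whole reads per gene without normalization, and the deposited TPM values are the authors' counts divided by gene length and scaled to a total of 1000000 per library.

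Here, the counts of genes whose mean reached 1 TPM in a compared group were tested with edgeR 4.0.16 (TMM, quasi-likelihood test, Benjamini-Hochberg over all genes tested). A call required a 1.5-fold change and an adjusted p below 0.05, and interactions the adjusted p alone. The test was checked on simulated data. DESeq2 1.42.0 (the study's own tool), other scalings and filters, a replicate block, a single fit and fits without single libraries were alternatives. The text names the 6 members in all contexts, the called genes of the 4 lists of related genes (in iBAT by count), and the 3 genes of highest r with each member. Some genes of these lists that were not called are given as well. One gene of these lists is not reported here by name. Lists of cell type markers are described by summed TPM, and single markers were named after their values were seen. The members and lists were chosen with earlier results of these data known.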

Additional observations from a re-analysis of the deposited data

Results flagged for a closer look

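In 6 of 77 groups of a gene in a set of replicates, 1 library lay far from the others by Dixon's test at the 95% level, which chance alone gives for about 1 in 20 groups. Krt19 was at 29.3 TPM in Hoxa5-/- lung at E12.5 of replicate 4, against 33.7 to 34.4 TPM in the others. Wt lung at E15.5 of replicate 3 held 24.2 TPM of Msln, against 3.29 to 6.26, and 334 TPM of Krt19, against 146 to 178. Wt trachea of replicate 2 held 21.3 TPM of Wt1, against 4.001 to 6.13. Lrrn4 was at 3.01 TPM in wt somites at E12.5 of replicate 4, against 1.25 to 1.41. Msln was at 0.123 TPM, from 3 reads, in iBAT of Hoxa5-/- replicate 1 and at 0 in the other 4.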

How the results depend on the processing

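No member was called between genotypes in any fit without 1 library, and the 6 calls of lung at E15.5 against E12.5 were kept in all 8 such fits. DESeq2 called 1 member in each of lung at E12.5, lung at E15.5 and diaphragm. Over all genes, edgeR called 3, 14, 22 and 107 between genotypes in trachea, lung at E12.5, lung at E15.5 and diaphragm, DESeq2 52, 81, 83 and 406, the replicate block 1, 4, 104 and 358, and 1 fit for all libraries 40, 18, 38 and 355. Replicate numbers were shared across genotypes, but in no context was every same-numbered pair correlated above 0.1 in deviations (from -0.17 to 0.48 over all). In diaphragm 3 pairs were at 0.198, 0.290 and 0.441 and 1 at -0.0437. Trachea pairs ran from -0.0561 to 0.394 and those of lung at E15.5 from -0.106 to 0.478. The labels do not state what the number stands for, and a shared litter or batch was not tested. In iBAT, 4 of 5 pairs were above 0.1 (0.0632 to 0.16), and Lrrn4, the member tested there, was at 0.34 with the number as a replicate block and at 0.35 with the leading number of the library names as a block, an alternative chosen after the data were seen, and was called with neither. With the number as a replicate block, 1 member was called in lung at E15.5 (Lrrn4) and 1 in the interaction of diaphragm with lung (Lrrn4), and Wt1 in lung at E12.5 turned to -0.0101.

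The signs that turned under other settings, as log2 fold changes, were these, and the cause was not tested. In diaphragm without wt replicates 1 and 2 Upk3b was at 0.0414, Upk1b at 0.12 and Msln at 0.11. Without wt replicate 3 as well Upk3b was at 0.0229 and Upk1b at 0.0505. Wt replicates 1 and 2 were the highest wt libraries for these genes, so leaving them out had to raise the values. Hoxa5-/- libraries in place of wt gave -0.59 for Wt1 and -1.25 for Lrrn4 in trachea against lung, and -0.29 for Upk3b and -0.14 for Krt19 in somites at E12.5 against E10.5. Fits without 1 library turned further signs, none of a value called with all libraries. Between genotypes they ranged from -0.63 to 0.0267 for Krt19 and from -1.37 to 0.62 for Msln in lung at E15.5, from -0.62 to 0.11 for Krt19 in trachea, from -0.014 to 0.15 for Lrrn4 in diaphragm, from -0.16 to 0.46 for Lrrn4 and from -0.0604 to 0.61 for Upk3b in somites at E12.5, and from -0.14 to 0.0867 for Wt1 in lung at E12.5. Between wt contexts they ranged from -0.54 to 0.30 for Lrrn4 and from -0.20 to 0.79 for Upk3b in somites, from -0.0199 to 1.21 for Lrrn4 and from -1.03 to 0.17 for Upk3b in trachea against lung, and from -0.16 to 0.20 for Upk1b in diaphragm against trachea. In the interactions they ranged from -0.32 to 0.44 for Krt19 and from -1.49 to 0.51 for Msln (trachea minus lung), from -0.95 to 1.06 for Msln (diaphragm minus lung), from -1.27 to 0.71 for Msln (lung at E15.5 minus E12.5) and from -0.0162 to 0.35 for Upk1b (diaphragm minus trachea). Over lung and diaphragm alone, r was 0.46 for Upk1b and Msln and 0.63 for Upk1b and Upk3b. Msln at E12.5 and all members but Lrrn4 in iBAT were limited by depth.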
